A study of Mus musculus with 3 samples.

Results

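Gpnmb macrophages of the mouse heart were taken as barcodes with macrophage transcripts and at least 2 unique molecular identifiers (UMIs, each standing for 1 captured RNA molecule) of Gpnmb. They numbered 1060 of the 12279 barcodes kept from the MI-E library, 1442 of 8831 from the MI library and 2 of 11105 from the Sham library, so 2504 of 32215 in all. Barcodes were kept if they held 200 genes or more and had no more than 10% of their UMIs from mitochondrial genes. A barcode was called a macrophage with at least 5 UMIs over the complement genes C1qa, C1qb and C1qc, with S100a8 and S100a9 under 0.3% of its UMIs, and with no UMI of Cd79a, Cd3d, Cd3e or Cd3g. Members also had to have under 5 UMIs over the interferon-stimulated genes Ifit1, Ifit2, Ifit3, Rsad2 and Usp18, and at most 1 UMI over the resident macrophage genes Lyve1 and Timd4. At most 1 UMI was allowed over the proliferation genes Mki67 and Top2a, and H2-Aa, H2-Ab1 and H2-Eb1, which encode MHC class II chains, had to stay under 1% of UMIs. The cells were thus chosen by the measured values of these genes, and the values of those genes in them are a description, with no test.

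The hearts came from C57BL/6J mice that were 8-9 weeks old, and leukocytes were sorted on the surface protein CD45 before droplet capture. The labels leave MI-E unexplained, MI stands by its name for myocardial infarction, and Sham for the operated heart without it. The surgery text, ligation of the left anterior descending coronary artery, is attached to all 3 libraries, Sham included, and neither the day of harvest nor how many hearts went into a library is stated. Each group is 1 library, so no difference between groups has a replicate check and none was tested. Values carry exact 95% intervals that cover counting error only.

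Macrophages that clear dead cells take in their membranes and lipoproteins, break them down in lysosomes and either store the freed cholesterol and fatty acids as droplets or export them. Gpnmb encodes a transmembrane glycoprotein of lysosomes and related vesicles, and Fabp5 encodes a cytosolic carrier of fatty acids. Trem2 encodes a surface receptor that binds lipids and apolipoproteins, and Spp1 encodes osteopontin, a secreted matrix phosphoprotein. Macrophages that carry these transcripts together are known from fat tissue, atherosclerotic plaque, brain and injured muscle, where they are called lipid-associated macrophages. In the GENCODE annotation of GRCm38, the assembly behind mm10, Gpnmb lies at chr6:49036546-49070929 on the plus strand, Fabp5 at chr3:10012548-10016607 on the plus strand, Trem2 at chr17:48346401-48354147 on the plus strand and Spp1 at chr5:104435118-104441050 on the plus strand.

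The libraries differed in depth and makeup. The kept barcodes held 103813894 UMIs in MI-E, 98410185 in MI and 40535928 in Sham. Gpnmb macrophages were among the deeper cells, with a median of 13133 UMIs and 3121 genes in MI-E and 12386 UMIs and 2906 genes in MI. Macrophages that passed every other gate but had 0 or 1 Gpnmb UMI, called Gpnmb-low below, numbered 1672 in MI-E, 2097 in MI and 1245 in Sham, with medians of 9850, 9521 and 3490 UMIs. The doublet caller Scrublet marked 6 of the MI-E members (0.566%) and 105 of the MI members (7.28%). Its automatic threshold held only in MI-E, and in MI and Sham the top-scoring barcodes were marked instead, as many as the loading predicts. Marked barcodes were kept, and their removal was an alternative. MI-E and MI shared 26 barcode sequences, of which 1 was a member in both, and no member sequence was shared with Sham.

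Gpnmb macrophages made up 8.63% of kept barcodes in MI-E (8.14 to 9.14), 16.3% in MI (15.6 to 17.1) and 0.0180% in Sham (0.00218 to 0.0650). The share in MI-E was 0.529 times that in MI (0.488 to 0.573). Over macrophages that passed every other gate, members were 38.8% of 2732 in MI-E (37.0 to 40.7) and 40.7% of 3539 in MI (39.1 to 42.4), a ratio of 0.952 (0.879 to 1.03) whose interval includes 1. Over these macrophages the shares of MI-E and MI therefore lay within counting error of each other, while over all leukocytes they did not. The rest of the leukocytes differed between the libraries: the C1q gate took 4264 barcodes in MI-E and 5883 in MI, and 1476 barcodes in MI-E against 149 in MI met a neutrophil gate. The part of this makeup in the lower share of members was not tested. When barcodes were thinned to 5000 UMIs before the gates were applied, the ratio over kept barcodes was 0.679. Shallower barcodes were left out there: 8046 of 12707 deposited barcodes reached that depth in MI-E and 7531 of 9095 in MI. The denominator thus changed along with the depth, and the part of each in this ratio was not tested.

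Gpnmb was nearly absent from the Sham macrophages. Of 4223 Sham C1q macrophages 3 had 2 or more Gpnmb UMIs (0.0710%), against 37.4% of 3954 in MI-E and 39.0% of 5658 in MI. The Sham macrophages were also shallower, and the part of depth in this share was not tested. The 2 Sham members differed from each other. The first had 3277 UMIs, with 3 of Gpnmb, 1 of Trem2 and none of Fabp5 or Spp1. The second had 15625 UMIs, with 9 of Gpnmb, 93 of Fabp5, 12 of Trem2 and 122 of Spp1. They were too few to compare with the other libraries.

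Gpnmb crossed the other gates unevenly. Of macrophages over the proliferation gate 36.1% of 266 in MI-E and 41.9% of 1026 in MI had 2 or more Gpnmb UMIs, and of those over the interferon gate 39.7% of 851 in MI-E and 43.7% of 984 in MI did. These shares are close to those of all C1q macrophages. Of macrophages over the MHC class II gate only 10.5% of 220 in MI-E and 8.45% of 296 in MI had as much Gpnmb, and of those over the Lyve1 and Timd4 gate 8.91% of 101 in MI-E and 10.4% of 250 in MI. Among macrophages with 2 or more Gpnmb UMIs, cycling cells were 6.50% of 1477 in MI-E (5.30 to 7.88) and 19.5% of 2207 in MI (17.8 to 21.2). The proliferation gate thus took a larger part of such cells out of the MI members than out of the MI-E members.

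Fabp5, Trem2 and Spp1, which no gate used, were at similar levels in the members of both libraries and stood above the Gpnmb-low macrophages. Levels are given as CPM, the UMIs of a gene summed over the cells of a population and scaled to a common total. Fabp5 was at 6051 CPM in MI-E members and 6571 CPM in MI members, against 1066 CPM in Gpnmb-low macrophages of MI-E, 1323 CPM in those of MI and 58.3 CPM in those of Sham. Trem2 was at 870 CPM in MI-E members and 943 CPM in MI members, against 499 CPM, 608 CPM and 260 CPM in the Gpnmb-low macrophages of MI-E, MI and Sham. Spp1 was at 10693 CPM in MI-E members and 11261 CPM in MI members, against 5806 CPM, 5163 CPM and 37.4 CPM in the same populations. Each marker was thus higher in the members of both libraries than in any Gpnmb-low population, with Fabp5 furthest above, at 5.68-fold in MI-E and 4.97-fold in MI. Between the members of MI-E and MI the ratios were 0.921 for Fabp5 (0.913 to 0.929), 0.922 for Trem2 (0.902 to 0.943) and 0.9496 for Spp1 (0.9435 to 0.956). In CPM all 3 were thus lower in MI-E by less than 10%. On the same scaling the median over all measured genes was higher in MI-E, at a log2 ratio of 0.13. Gpnmb itself, which was part of the choice, was at 804 CPM in MI-E members and 688 CPM in MI members.

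**Figure D1:**
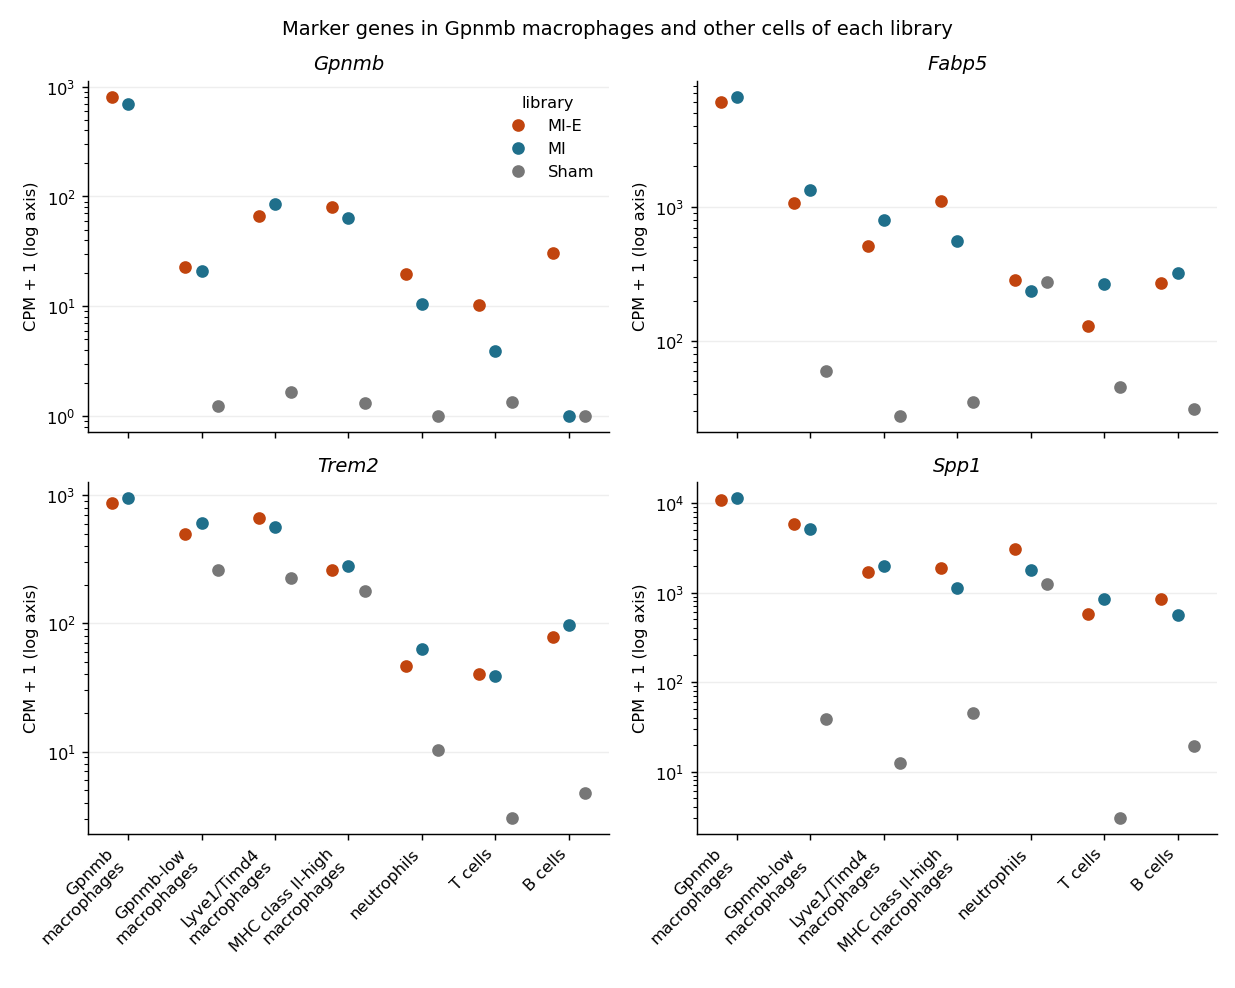
Level of Gpnmb, Fabp5, Trem2 and Spp1 as CPM + 1 on a log axis in 7 populations of each library, 1 point per library and population. Gpnmb macrophages hold the highest point for all 4 genes, and the 2 Sham members are not shown.

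Single members carried the markers together. Of the members 95.8% in MI-E (94.4 to 96.9) and 96.0% in MI (94.9 to 97.0) had a UMI of each of Fabp5, Trem2 and Spp1, against 65.7% of Gpnmb-low macrophages in MI-E and 69.1% in MI. Members without a UMI numbered 28 in MI-E and 50 in MI for Fabp5, 15 in MI-E and 6 in MI for Trem2, and 3 in MI-E and 5 in MI for Spp1. After thinning to 5000 UMIs, Trem2 was detected in 94.2% of MI-E members and 96.6% of MI members. In MI-E it was detected in 22.6% of 31 B cells and 17.5% of 154 neutrophils. In MI it was detected in 37.5% of 8 B cells and 3 of 15 neutrophils. Shallower cells were left out, among them 269 B cells and 1322 neutrophils of MI-E. Free RNA in the suspension gives UMIs of a gene in cells that should lack it. The Trem2 shares of members were above those of these B cells and neutrophils, which had been chosen for few C1q UMIs. The part of such background in the Trem2 shares of members was not tested. Fabp5 had more background, with a UMI in 983 of 1051 MI-E members and 1350 of 1421 MI members, against 60.4% of neutrophils and 41.9% of B cells in MI-E and 11 of 15 neutrophils and 2 of 8 B cells in MI, and the part of that background in the joint detection of the markers was not tested. For Spp1 the shares were close, at 96.1% of the 154 MI-E neutrophils at that depth against 98.5% of MI-E members. Without thinning, 79.1% of all MI-E neutrophils and 99.7% of MI-E members had a UMI of Spp1. Its level differed more, at 10693 CPM in MI-E members and 11261 CPM in MI members, against 3028 CPM in neutrophils of MI-E and 1807 CPM in those of MI. The count was 153 UMIs per member cell in MI-E and 151 in MI, against 8.86 per neutrophil in MI-E and 5.09 in MI. The neutrophils were shallower, with medians of 2274 UMIs in MI-E and 2091 in MI, so these counts differ partly by depth.

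Members varied widely among themselves. Gpnmb had a median of 7 UMIs per cell in MI-E, with a maximum of 109, and a median of 6 in MI, with a maximum of 75. Fabp5 had a median of 51.5 UMIs per cell in MI-E, with a maximum of 800, and a median of 55.5 in MI, with a maximum of 819. Trem2 was more even, with a median of 11 UMIs in both libraries and a maximum of 49 in MI-E and 53 in MI. The Gpnmb gate cuts through a range of UMI counts, and whether the members are a separate group of cells was not tested. Exactly 2 Gpnmb UMIs were held by 181 members in MI-E and 233 in MI, and exactly 1 UMI by 384 and 430 macrophages just outside. Just inside the threshold Fabp5 was at 2388 CPM in the MI-E library and 2693 CPM in that of MI, and just outside at 1379 CPM in the MI-E library and 1905 CPM in that of MI. Trem2 was at 636 CPM in the MI-E library and 759 CPM in that of MI just inside, and at 547 CPM in the MI-E library and 663 CPM in that of MI just outside.

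Macrophages of the other gates with at least 5000 UMIs were thinned to 5000 UMIs and grouped into classes by their Gpnmb UMIs at that depth. Some genes outside the gates formed graded series over the classes and others did not. The classes held 0, 1, 2 to 3, 4 to 7 and 8 or more Gpnmb UMIs, and the levels come from all UMIs of their cells. Fabp5 was at 1271, 3155, 4914, 7263 and 11014 CPM over these classes of MI-E and at 1528, 3109, 5693, 8974 and 12466 CPM over those of MI. Ctsd, which encodes the lysosomal protease cathepsin D, was at 3278, 4676, 6186, 7117 and 8852 CPM over the classes of MI-E and at 3133, 4694, 6095, 6943 and 8959 CPM over those of MI. Both genes were higher in every successive class of both libraries. Lpl, which encodes lipoprotein lipase, was at 104, 143, 173, 246 and 449 CPM over the classes of MI-E and at 118, 159.6, 275, 371 and 588 CPM over those of MI. Il1b, which encodes the cytokine interleukin 1 beta, ran the other way, at 2387, 1700, 949, 682 and 483 CPM over the classes of MI-E and 1630, 1087, 635, 376 and 305 CPM over those of MI. Ccr2, which encodes the chemokine receptor of recruited monocytes, was likewise lower in each successive class, at 203, 165, 133, 86.7 and 51.3 CPM over the classes of MI-E and 175, 130.3, 91.6, 61.6 and 24.2 CPM over those of MI. Others followed no such order: Pf4, a platelet and macrophage chemokine, was at 5073, 6229, 7001, 6160 and 4891 CPM over the classes of MI-E and at 5640, 7241, 8169, 8422 and 6001 CPM over those of MI. Cd9, Folr2 and Hmox1 were not graded in either library, and Mmp12 was graded in MI and not in MI-E. Vegfa, a growth factor of vessels, varied less, between 123 and 153 CPM in MI-E and between 122 and 143 CPM in MI.

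**Figure D2:**
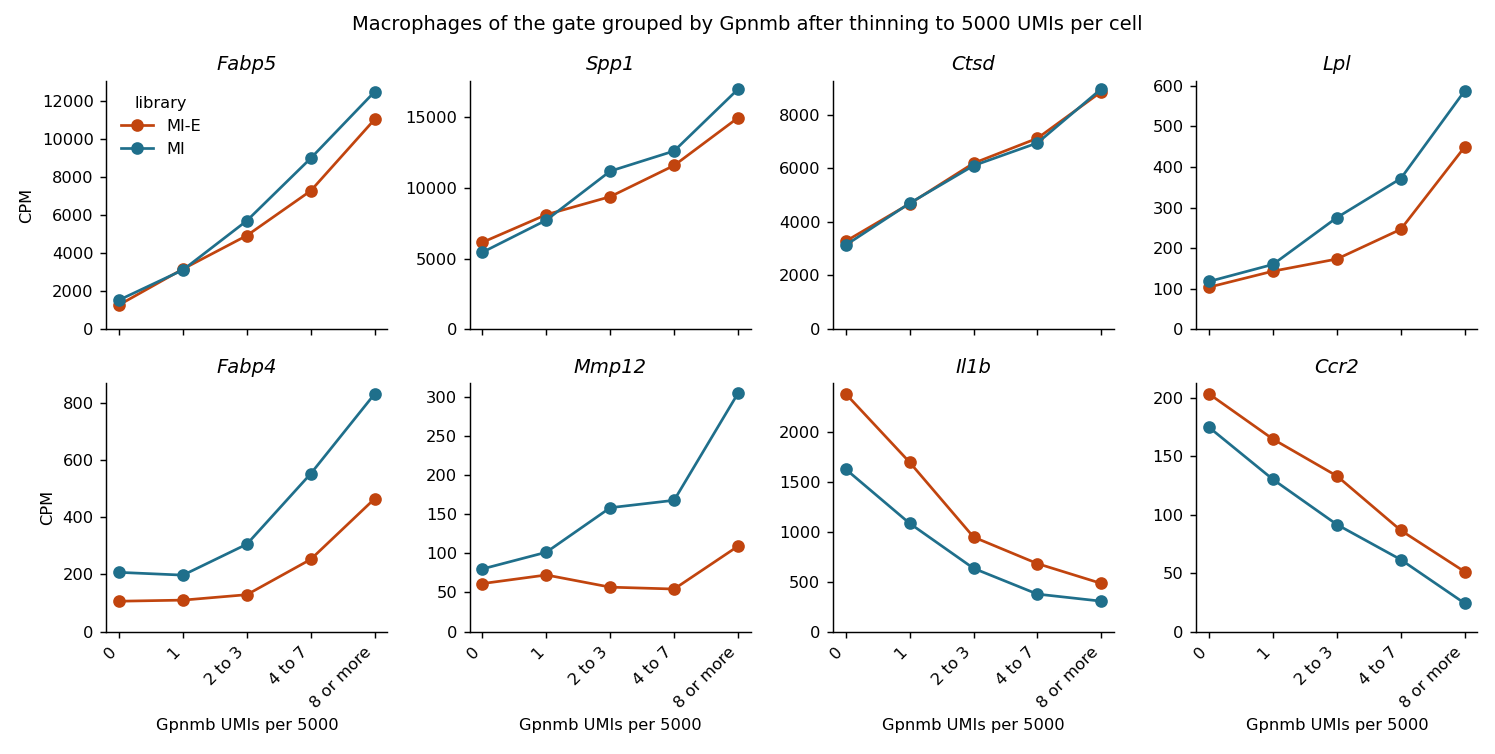
Level in CPM of 8 genes in macrophages grouped by Gpnmb UMIs after thinning to 5000 UMIs per cell, 1 line per library. Fabp5, Spp1, Ctsd and Lpl are highest in the class with the most Gpnmb, Il1b and Ccr2 are lowest there, and Mmp12 is at 109 CPM in the MI-E library and 305 CPM in that of MI in that class.

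Members were next set against Gpnmb-low macrophages of the same library. Since Gpnmb chose both, this describes the cells and tests nothing. A gene was measured with at least 20 CPM in either population, and a difference was counted from 1.5-fold on the ratio of CPM + 1. In MI-E 160 of 4982 measured genes were higher in members (3.21%) and 156 lower (3.13%), and in MI 103 of 4814 were higher (2.14%) and 159 lower (3.3%). Over the 4672 genes measured in both libraries, 87 were higher in both (1.86%) and 91 lower in both (1.95%). The median over all measured genes was a log2 ratio of 0.015 in MI-E and -0.029 in MI.

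Genes of lipid uptake and breakdown were among the higher ones. Apart from Fabp5, the genes furthest above were Syngr1, a vesicle membrane protein, at 4.26-fold in MI-E and 3.51-fold in MI, and Ccl8, a monocyte-attracting chemokine, at 3.99-fold in MI-E and 3.36-fold in MI. Per cell, Lyve1 and Timd4 macrophages held more Ccl8 than members, at 40.4 against 13.4 UMIs in MI-E and 18 against 13.9 in MI. Lpl was at 232 CPM in MI-E members and 307 CPM in MI members, against 96.1 CPM in Gpnmb-low macrophages of MI-E and 107 CPM in those of MI. Cd36, a scavenger receptor for oxidized lipoprotein and fatty acids, was 1.57-fold higher in MI-E and 1.72-fold in MI, and Slc27a1, a fatty acid transporter, 2.23-fold in MI-E and 2.02-fold in MI. Lipa, the lysosomal acid lipase, was 1.90-fold higher in MI-E and 1.78-fold in MI, and Soat1, which esterifies cholesterol for storage, 1.73-fold in MI-E and 1.77-fold in MI. Plin2, which coats lipid droplets, was 1.25-fold higher in MI-E and 1.37-fold in MI, under the 1.5-fold threshold. Of the list of fatty acid uptake and storage genes 8 of 21 were higher in MI-E and none lower, and in MI 8 of 21 were higher and 1 lower.

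Of the list of Trem2 and lipid-associated macrophage genes 12 of 20 were higher in MI-E members and 12 of 21 in MI members, and none was lower in either. The list was written with the 4 markers in view and holds Fabp5, Trem2 and Spp1, so these counts describe it only. Lgals3, a galactose-binding lectin, was 1.71-fold higher in MI-E and 1.74-fold in MI. Apoe, which carries cholesterol out of macrophages, was 1.45-fold higher in MI-E and 1.29-fold in MI, and at 30189 CPM in Sham Gpnmb-low macrophages it was above the members and the Gpnmb-low macrophages of MI-E and MI. Cd9, a tetraspanin often listed with these cells, was 0.918-fold in MI-E and 1.15-fold in MI, and Itgax, an integrin chain also known as CD11c, 0.963-fold in MI-E and 0.789-fold in MI. Cholesterol efflux genes gave 2 of 13 higher in MI-E and 2 of 12 in MI, led by Nr1h3, the nuclear receptor LXR alpha, at 2.03-fold in MI-E and 1.59-fold in MI. Genes of fatty acid oxidation gave 1 of 16 higher in MI-E and 0 of 15 in MI, and genes of oxidative phosphorylation 0 of 20 in both.

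A minority of the listed lysosomal genes passed 1.5-fold, nearly all of them higher in members. Of the lysosomal hydrolases 10 of 27 were higher in MI-E members, and in MI members 8 of 26 were higher and 1 lower, with median log2 ratios of 0.46 in MI-E and 0.41 in MI. Ctsd was at 6482 CPM in MI-E members and 6216 CPM in MI members, against 3143 CPM in Gpnmb-low macrophages of MI-E and 3099 CPM in those of MI. Ctsb and Ctsl, which encode cathepsins B and L, were 1.77-fold and 1.65-fold higher in MI-E and 1.68-fold and 1.71-fold in MI. Psap, the precursor of proteins that activate sphingolipid breakdown, was 2.05-fold higher in MI-E and 2.02-fold in MI, and Cd63, a tetraspanin of late endosomes and lysosomes, 2.18-fold in MI-E and 2.23-fold in MI. Ctsk, a collagen-degrading cathepsin, was at 22.0 CPM in MI-E members and 24.0 CPM in MI members against 4.59 CPM and 3.38 CPM in Gpnmb-low macrophages of the same libraries, but 1 MI member held 40.0% of its UMIs there. Without that cell it was at 14.4 CPM in MI members. Genes of the lysosomal membrane and proton pump gave 4 of 26 higher in MI-E and 3 of 26 in MI, with Lamp1, a major lysosomal membrane glycoprotein, at 1.49-fold in MI-E and 1.40-fold in MI. Of the MiT/TFE transcription factors and their regulators, which direct lysosomal genes, 0 of 11 were higher in MI-E and 0 of 10 in MI.

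The MiT/TFE factors bind a short E-box, CACGTG, whose sequence reads the same on both strands. It was searched in the 250 bases upstream of RefSeq starts on GRCm38.p6, and 6.02% of 32851 such windows held it, or 6.86% of 27025 genes in any window. It was found for 7 of the 21 lysosomal hydrolase genes with an entry and for 5 of 22 genes of the lysosomal membrane and pump. Of the 9 genes with an entry among the 12 furthest above Gpnmb-low macrophages 0 held it, of the 9 with an entry among the 12 furthest below 2 did, Slamf9 and Slpi, and likewise 0 of the 3 markers with an entry, Gpnmb, Spp1 and Trem2. The windows of 3 genes are shown, because they set the marker that chose the cells beside a protease and a membrane protein of the lysosome. Of these 2, Ctsd passed 1.5-fold in the members of both libraries and Lamp1 stayed under it in both. Capitals mark each CACGTG, and each window runs from 5′ to 3′ up to the base before the start. The Gpnmb window lies at chr6:49036268-49036517 on the plus strand, that of Ctsd at chr7:142387828-142388077 on the minus strand and that of Lamp1 at chr8:13158911-13159160 on the plus strand.
Gpnmb: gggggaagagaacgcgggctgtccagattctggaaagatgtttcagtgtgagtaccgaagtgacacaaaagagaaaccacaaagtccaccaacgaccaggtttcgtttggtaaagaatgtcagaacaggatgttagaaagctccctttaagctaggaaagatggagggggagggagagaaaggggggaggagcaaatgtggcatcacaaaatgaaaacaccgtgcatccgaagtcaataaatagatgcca
Ctsd: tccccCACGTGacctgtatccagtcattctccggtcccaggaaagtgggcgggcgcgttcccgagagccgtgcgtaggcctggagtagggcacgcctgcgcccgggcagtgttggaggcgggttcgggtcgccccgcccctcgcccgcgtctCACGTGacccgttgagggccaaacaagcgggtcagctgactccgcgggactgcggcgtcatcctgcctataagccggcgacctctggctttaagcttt
Lamp1: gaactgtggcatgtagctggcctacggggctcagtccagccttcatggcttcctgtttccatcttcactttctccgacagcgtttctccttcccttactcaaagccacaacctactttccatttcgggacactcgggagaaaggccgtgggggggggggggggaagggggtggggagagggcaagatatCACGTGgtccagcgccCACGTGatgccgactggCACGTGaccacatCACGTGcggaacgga
The Gpnmb window held none of these letters in that order, the Ctsd window held the motif at 245 and 98 bases before the start, and the Lamp1 window at 61, 45, 28 and 15 bases before it. Among lysosomal genes with the motif 5 of 11 were higher in MI-E members and 3 of 11 in MI members, with median log2 ratios of 0.57 and 0.49. Among those without it 7 of 30 were higher in MI-E and 6 of 29 in MI, with medians of 0.27 and 0.25. The motif is a description of these letters, and no binding was measured here.

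Inflammatory and monocyte genes were lower in members than in Gpnmb-low macrophages of both libraries. Il1b was at 921 CPM in MI-E members and 608 CPM in MI members, against 2492 CPM in Gpnmb-low macrophages of MI-E and 1693 CPM in those of MI. Of the inflammatory cytokine and chemokine list 6 of 19 were lower in MI-E and 5 of 19 in MI, and Ccl8 was the 1 higher gene in each. Neutrophils held Il1b at 10166 CPM in the MI-E library and 10283 CPM in that of MI, and B cells, which should lack it, at 749 CPM in the MI-E library and 1077 CPM in that of MI, so the level in MI members was below that of B cells. Per cell the count was 13.2 UMIs in MI-E members and 8.14 in MI members, against 2.21 per B cell in MI-E and 4.05 in MI, and the part of free RNA was not tested. Of the classical monocyte list 9 of 17 were lower in MI-E and 10 of 17 in MI, with none higher. Of the interferon list outside the gate 5 of 21 were lower in MI-E and 1 of 20 in MI. Plac8, a small protein of monocytes, was 0.332-fold in MI-E and 0.352-fold in MI, and Ccr2 0.522-fold in MI-E and 0.462-fold in MI. Cx3cr1, the fractalkine receptor, was 0.293-fold in MI-E and 0.343-fold in MI. Fn1, which encodes fibronectin, was 0.483-fold in MI-E and 0.514-fold in MI, and Slpi, a secreted inhibitor of leukocyte elastase, 0.446-fold in MI-E and 0.460-fold in MI. Cd86, a costimulatory ligand for T cells, was 0.506-fold in MI-E and 0.419-fold in MI, and Cd74, the chain that accompanies MHC class II, 0.489-fold in MI-E and 0.387-fold in MI. Cd74 stands beside the genes of the MHC class II gate, which bounded both populations alike.

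Among the 12 furthest below were also Cd81, a tetraspanin, at 0.375-fold in MI-E and 0.394-fold in MI, Tmem176b, an intracellular membrane protein, at 0.373-fold in MI-E and 0.399-fold in MI, and Slamf9, a receptor of the SLAM family, at 0.437-fold in MI-E and 0.416-fold in MI. Bcl2a1a, a survival protein, was 0.423-fold in MI-E and 0.448-fold in MI, but near-identical copies of this gene can share its reads. Sparc, a matrix-binding protein, was 0.271-fold in MI-E and 0.166-fold in MI. A single MI-E member held 37.1% of the Sparc UMIs of the MI-E members, and without the largest cell of each population the level was 27.5 CPM in MI-E members and 8.71 CPM in MI members, against 136 CPM in Gpnmb-low macrophages of MI-E and 42.1 CPM in those of MI. Sparc is a fibroblast gene as well, and the fibroblast markers beside it are given with the comparison of MI-E and MI.

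Genes of cell clearance and repair were mixed. Of the efferocytosis list 3 of 14 were higher in MI-E and 2 in MI, with 1 lower in each, and of the matrix list 4 of 26 were higher and 9 lower in MI-E, and 5 of 24 higher and 6 lower in MI. Gas6, a bridge between dying cells and their receptors, was 2.19-fold higher in MI-E members and 1.64-fold in MI members, and Mertk, one of those receptors, 1.72-fold in MI-E and 1.36-fold in MI. Axl, a receptor of the same family, was lower, at 0.530-fold in MI-E and 0.576-fold in MI. Igf1, a growth factor, was at 73.2 CPM in MI-E members and 110 CPM in MI members. In Gpnmb-low macrophages it was at 28.3 CPM in MI-E, 50.5 CPM in MI and 266 CPM in Sham. Per cell, Lyve1 and Timd4 macrophages held more Igf1 than members, at 3.33 against 1.05 UMIs in MI-E and 2.53 against 1.48 in MI. Of the resident macrophage list outside the gate, 4 of 13 were higher and 1 lower in MI-E members. In MI members 3 of 13 were higher and 2 lower. Gdf15, a secreted stress-response factor, was 1.77-fold higher in MI-E and 1.54-fold in MI. Timp2, an inhibitor of matrix metalloproteinases, was 2.55-fold higher in MI-E and 1.97-fold in MI, and Mmp8, a collagenase known from neutrophils, 2.70-fold in MI-E and 2.52-fold in MI. Of the other neutrophil markers, Camp was at 0 in the members of both libraries and Ngp in those of MI, and the summed list was at 145 CPM in MI-E members and 90.4 CPM in MI members, against 148 CPM and 101 CPM in the Gpnmb-low macrophages of the same libraries.

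Further genes among the 12 furthest above were F7, coagulation factor VII, at 2.97-fold in MI-E and 3.12-fold in MI, and Rnf128, a ubiquitin ligase, at 2.48-fold in MI-E and 2.08-fold in MI. Serpinb6a, an intracellular protease inhibitor, was 2.20-fold higher in MI-E and 2.17-fold in MI. Slc6a8, a creatine transporter, was 2.11-fold higher in MI-E and 2.33-fold in MI. Cela1, a serine protease of the elastase family, was 2.20-fold higher in MI-E and 2.06-fold in MI. Per cell, Lyve1 and Timd4 macrophages held more Serpinb6a than members, at 8.90 against 2.35 UMIs in MI-E and 5.28 against 2.89 in MI. They also held more Cela1, at 1.84 against 0.758 UMIs in MI-E and 1.38 against 1.26 in MI. Fabp5, Syngr1, F7, Lpl, Cd63, Slc6a8, Rnf128 and Psap were lower per cell in them than in members of both libraries. Of the iron handling list 4 of 14 were higher in MI-E and 3 in MI, with 1 lower in each. Slc48a1, which carries heme out of lysosomes, was 1.86-fold higher in MI-E and 1.74-fold in MI. The 7 measured osteopontin receptors gave 0 higher and 0 lower in both libraries.

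**Figure D3:**
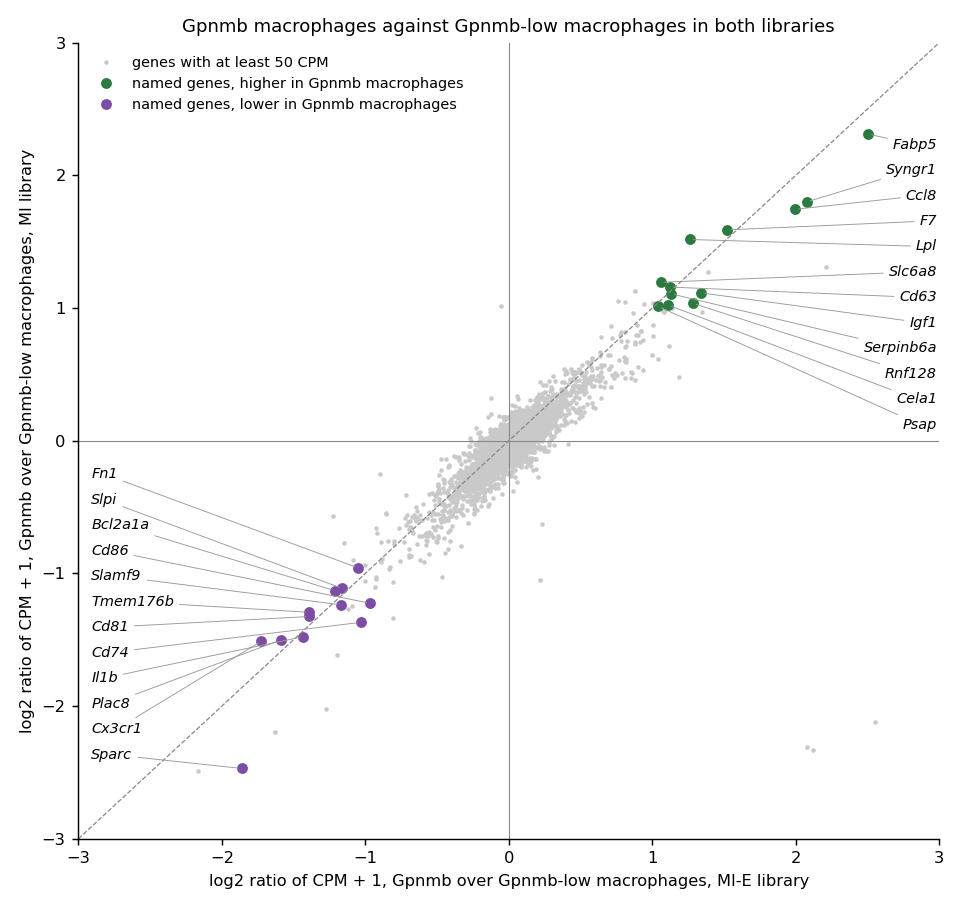
Log2 ratio of CPM + 1 of Gpnmb over Gpnmb-low macrophages in MI-E on the horizontal axis and in MI on the vertical axis, for 2809 genes with at least 50 CPM, with the 12 highest and 12 lowest named genes marked. The named genes lie near the diagonal, Fabp5 furthest out at 5.68-fold in MI-E and 4.97-fold in MI, and 1 point, Hbb-bt, lies outside the axes.

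MI-E members were then set against MI members. Of 4944 measured genes 230 were at least 1.5-fold higher in MI-E (4.65%) and 87 at least 1.5-fold lower (1.76%). The median over all measured genes was itself at a log2 ratio of 0.13. Scaling by TMM, which sets the bulk of genes to no difference, took that median to 0.0014 and the counts to 104 higher and 234 lower, so the balance of the counts turns with the scaling, and log2 medians below are read against 0.13. In the Gpnmb-low macrophages of the same libraries 168 of 4892 genes were higher in MI-E (3.43%) and 102 lower (2.09%), around a median of 0.08. Of the genes measured in both populations, 114 were higher in MI-E in both, which is 51.4% of the 222 in members and 82.0% of the 139 in Gpnmb-low macrophages. Lower in both were 60, which is 72.3% of the 83 in members and 65.2% of the 92 in Gpnmb-low macrophages. Many of the genes that differed between MI-E and MI members thus differed in the macrophages beside them as well, and whether the populations differ in it was not tested.

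Monocyte genes were higher in MI-E members, with the highest median of the 26 lists in the plot of list medians. Of the classical monocyte list 8 of 16 were higher and none lower, with a median log2 ratio of 0.64, and with TMM 7 of 16 were higher around a median of 0.52. Ly6c2, a surface protein of classical monocytes, was at 222 CPM in MI-E members and 72.4 CPM in MI members, a ratio of 3.07 (2.88 to 3.27), and its ratio in Gpnmb-low macrophages was 3.11. Chil3, a secreted chitinase-like protein, was at 719 CPM in MI-E members and 246 CPM in MI members, a ratio of 2.92 (2.82 to 3.02). Ms4a4c, a monocyte membrane protein, had a ratio of 2.19, F10, coagulation factor X, of 2.12, and Clec4e, a pattern receptor, of 1.68. Neutrophils held Clec4e at 3683 CPM in the MI-E library and 2632 CPM in that of MI, and F10 at 145 CPM in the MI-E library and 148 CPM in that of MI, both above the members. Of the neutrophil markers 2 of 3 measured were higher in MI-E members, Mmp8 and Il1r2, with a median log2 ratio of 0.59, and the part of neutrophil RNA in these monocyte values was not tested. Ccr2 was at 110 CPM in MI-E members and 84.0 CPM in MI members, a ratio of 1.32 that stayed under the threshold, and Fn1 had a ratio of 0.974.

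Background bears on Ly6c2. After thinning to 5000 UMIs it was detected in 38.7% of MI-E members and 17.7% of MI members. It was also detected in 41.9% of B cells and 43.5% of neutrophils of MI-E at that depth, only 31 and 154 cells. The share in MI-E members thus did not stand above that of cells outside the members. Counted per cell, MI-E members held 3.19 UMIs of Ly6c2 and MI members 0.9702. In MI-E the B cells held 0.530, neutrophils 0.597 and Lyve1 and Timd4 macrophages 0.495 per cell, and in MI the B cells held 0.0909, neutrophils 0.315 and Lyve1 and Timd4 macrophages 0.204. The level outside members was thus higher in MI-E as well. For Chil3 the count was 10.3 UMIs per MI-E member and 3.30 per MI member, against 0.690 per B cell in MI-E and 0.205 in MI. The part of free RNA in the Ly6c2 and Chil3 ratios of MI-E over MI was not tested.

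Interferon genes were also higher in MI-E members, although the gate had removed the cells with the most such transcripts, 338 of 1477 (22.9%) in MI-E and 430 of 2207 (19.5%) in MI. Of the interferon-stimulated genes outside the gate 8 of 21 were higher and none lower, with a median log2 ratio of 0.47, and with TMM again 8 of 21 around a median of 0.35. Irf7, a transcription factor of the interferon response, was at 265 CPM in MI-E members and 129 CPM in MI members, a ratio of 2.06 (1.96 to 2.16). Oasl2 and Oas3, antiviral genes of the oligoadenylate synthetase family, had ratios of 2.18 and 2.05, Zbp1, a sensor of nucleic acids, of 1.92, and Isg15, a ubiquitin-like modifier, of 1.35. Cells outside the members moved with these values: Irf7 was at 182 CPM in B cells of MI-E and 84.7 CPM in those of MI, and at 446 CPM in neutrophils of MI-E and 217 CPM in those of MI. Neutrophils of MI-E also held more than the MI-E members of Oasl2, at 192 CPM, Oas3, at 125 CPM, Zbp1, at 256 CPM, and Isg15, at 1889 CPM. The part of their RNA in the ratios of members was not tested. Ifi205, at a ratio of 2.37, belongs to a family of near-identical genes between which reads can be split, and the same holds for H2-Q7, a nonclassical MHC class I gene, at 2.43. H2-Q7 stood at 1.14 UMIs per MI-E member and 0.438 per MI member, against 0.730 per B cell in MI-E and 0.545 in MI. Within Gpnmb-low macrophages the interferon list had a median of 0.51 for MI-E over MI.

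Secreted and matrix genes differed one by one. Of the matrix and matrix remodelling list 7 of 22 were higher in MI-E members and 1 lower, and with TMM 4 higher and 2 lower. Thbs1, the matrix glycoprotein thrombospondin 1, was at 1585 CPM in MI-E members and 969 CPM in MI members, a ratio of 1.64, Tgfbi, a matrix adhesion protein, had a ratio of 1.64 and Ecm1 of 1.70. Timp1, an inhibitor of matrix metalloproteinases, was at 85.1 CPM in MI-E members and 38.1 CPM in MI members, but 1 MI-E member held 22.2% of its UMIs and without the largest cell of each library the ratio was 1.76. Il1rn, the interleukin 1 receptor antagonist, was at 375 CPM in MI-E members and 181 CPM in MI members, a ratio of 2.07 (1.98 to 2.16). Il1b had a ratio of 1.52, Cfb, complement factor B, of 2.15, and Ccl9, a chemokine, of 1.55. Il1b and Ccl9 were the 2 of 19 genes of the inflammatory list that were higher, and with TMM 0 were higher and 1 lower. Neutrophils held more Il1rn than members, at 3416 CPM in the MI-E library and 3082 CPM in that of MI, and the part of neutrophil RNA in the Il1rn ratio was not tested. Neat1, a noncoding nuclear RNA, was at 329 CPM in MI-E members and 153 CPM in MI members. In neutrophils Neat1 was above the members, with 920 CPM in the MI-E library and 489 CPM in that of MI. In B cells it was below them, with 122 CPM in the MI-E library and 60.5 CPM in that of MI. Both cell types thus held more in MI-E as well, and the part of their RNA in the Neat1 values of members was not tested.

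Fibroblast transcripts moved with these matrix values. Of the 4 measured fibroblast markers 3 were higher in MI-E members: Col1a2 at 32.3 CPM in MI-E members and 2.59 CPM in MI members, Col3a1 at 35.4 CPM in MI-E members and 2.59 CPM in MI members, and Dcn at 28.7 CPM in MI-E members and 1.40 CPM in MI members. A single MI-E member held 39.4% of the Col1a2 UMIs. The 9 markers summed to 335 CPM in MI-E members and 185 CPM in MI members, of which Gsn, which macrophages also express, made up 213 CPM in the MI-E library and 177 CPM in that of MI, and Pdgfra was at 0 in MI members. In Gpnmb-low macrophages the sum was 561 CPM in the MI-E library and 254 CPM in that of MI. The part of fibroblast RNA in Timp1, Sparc and the other matrix values was not tested.

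Mmp12 and Fabp4 were among the 12 genes furthest below in MI-E members. Mmp12, the macrophage metalloelastase, was at 63.9 CPM in MI-E members and 161 CPM in MI members, 2.52-fold lower, while in Gpnmb-low macrophages it was at 66.5 CPM in the MI-E library and 78.8 CPM in that of MI. It was therefore above the Gpnmb-low level in MI members, at 2.04-fold, and level with it in MI-E members, at 0.960-fold, and this difference between libraries was not tested. It was detected in 20.7% of MI-E members and 24.5% of MI members, and without the largest cell of each library the ratio of MI-E over MI was 0.389. After thinning, 12.4% of MI-E members and 17.1% of MI members had a Mmp12 UMI. So did 4.55% of 154 neutrophils in MI-E and, in MI, 1 of 8 B cells and 0 of 15 neutrophils.

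Fabp4, a fatty acid carrier of fat cells, capillary endothelium and macrophages, was at 205 CPM in MI-E members and 400 CPM in MI members, a ratio of 0.512 (0.491 to 0.533). In Gpnmb-low macrophages it was at 106 CPM in MI-E, 196 CPM in MI and 451 CPM in Sham. It was uneven between cells: 599 of the 1060 MI-E members and 633 of the 1442 MI members had no UMI of it, while the highest member held 150 UMIs in MI-E and 123 in MI. After thinning, 30.7% of MI-E members (28.0 to 33.6) and 43.6% of MI members (41.0 to 46.3) had a Fabp4 UMI. In MI-E 9.68% of 31 B cells and 17 of 154 neutrophils had one. In MI 0 of 8 B cells and 0 of 15 neutrophils did. As a level, B cells held 183 CPM of Fabp4 in MI-E and 6.05 CPM in MI, so the background was higher in MI-E, the library with the lower level in members. Its part in the ratio was not tested. In the class with 8 or more Gpnmb UMIs in 5000 it was at 465 CPM in the MI-E library and 833 CPM in that of MI, against 106 CPM in the MI-E library and 207 CPM in that of MI in the class with none. Fabp4 lies on chromosome 3, as Fabp5 does, at chr3:10204088-10208576 on the minus strand. In CPM Fabp5 differed by under 10% between the members of the libraries.

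Other lower genes in MI-E members were Mt1 and Mt2, metallothioneins that bind zinc and copper. Mt1 was at 816 CPM in MI-E members and 1474 CPM in MI members, a ratio of 0.554, and was at 5630 CPM in Sham Gpnmb-low macrophages. Mt2 had a ratio of 0.565. Of the proliferation genes outside the gate 5 of 12 were lower in MI-E members and none higher, with a median log2 ratio of -0.36 and of -0.48 with TMM. Stmn1, a microtubule regulator of dividing cells, had a ratio of 0.527, Dut, which keeps uracil out of DNA, of 0.478, and the replication helicase subunit Mcm5 of 0.578. B cells of MI-E held 57.6 CPM of Stmn1 and B cells of MI 224 CPM. T cells held 213 CPM of it in MI-E against 536 CPM in MI, and neutrophils 21.3 CPM against 21.5 CPM. Members were lower than these B and T cells, with 35.3 CPM for MI-E and 67.0 CPM for MI. Mcm5 was lower in B cells of MI than in MI members. Over the proliferation gate were 266 of 3954 macrophages in MI-E and 1026 of 5658 in MI. The part of free RNA and of remaining cycling cells in these ratios was not tested. Fkbp5, a target of the glucocorticoid receptor, was at 9.47 CPM in MI-E members and 47.5 CPM in MI members, a ratio of 0.199, and its ratio in Gpnmb-low macrophages was 0.203. The 17 listed glucocorticoid targets gave 1 of 11 measured higher and 2 lower around a median of 0.05, so Fkbp5 did not stand for the list. Mertk was at 28.5 CPM in MI-E members and 48.8 CPM in MI members, a ratio of 0.584.

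The remaining genes among the 12 furthest below were Dennd5b, a regulator of vesicle traffic, at a ratio of 0.488, Polr2l, an RNA polymerase subunit, at 0.518, and Erh, a nuclear protein, at 0.541. Vps13c, a lipid transfer protein, had a ratio of 0.545, the histone gene H2afv of 0.558, Vkorc1, the vitamin K reductase, of 0.559, and Cela1 of 0.560. Each of these 7 had a similar ratio in Gpnmb-low macrophages, between 0.451 for Vps13c and 0.583 for Polr2l.

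Few genes of the lipid and lysosome lists passed 1.5-fold between MI-E and MI members. Of the Trem2 and lipid-associated macrophage list 0 of 21 were higher or lower, with log2 ratios between -0.43 and 0.45 and a median of -0.06. Of the lysosomal hydrolases 0 of 27 and of the lysosomal membrane genes 0 of 26 passed 1.5-fold, with medians of 0.26 and 0.20. Of the fatty acid uptake and storage list 2 of 20 were higher, among them Dgat1, which makes triglyceride, at a ratio of 1.77, and 1 was lower, Fabp4, and with TMM 2 were higher and 3 lower. Of the cholesterol efflux list 2 of 13 were higher, Nr1h3 at a ratio of 1.71 and Arl4c, a target of LXR, at 1.60, and with TMM 1. Lpl was at 232 CPM in MI-E members and 307 CPM in MI members, a ratio of 0.755 (0.724 to 0.788).

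Of the other metabolic lists, oxidative phosphorylation gave 0 of 20 on either side, or 1 lower with TMM, fatty acid oxidation 0 of 15, and glycolysis and hypoxia 1 of 21 higher, Slc16a3, a lactate transporter, at 1.51. The arginine and polyamine list gave 1 of 9 higher, Arg2, the mitochondrial arginase, at 1.76. Arg2 was higher in neutrophils than in members, with 391 CPM in the MI-E library and 362 CPM in that of MI. The part of neutrophil RNA in the Arg2 ratio was not tested. The antioxidant list gave 1 of 21 higher, Slc7a11, the cystine transporter, at 1.74, and 2 lower, Mt1 and Mt2, and the iron list 2 of 15 higher, Slc11a2 at 1.68 and Flvcr1 at 1.72. Efferocytosis genes gave 0 of 14 higher and 1 lower, Mertk, growth and angiogenic factors 2 of 16 higher, Il1rn and Inhba, and 1 lower, Igf1 at a ratio of 0.662. The dissociation stress list gave 0 of 19 on either side around a median of -0.01. The medians of the fatty acid oxidation, efferocytosis, arginine, glycolysis, antioxidant, iron and glucocorticoid lists, all between 0.01 and 0.12, fell on the other side of 0 with TMM.

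**Figure D4:**
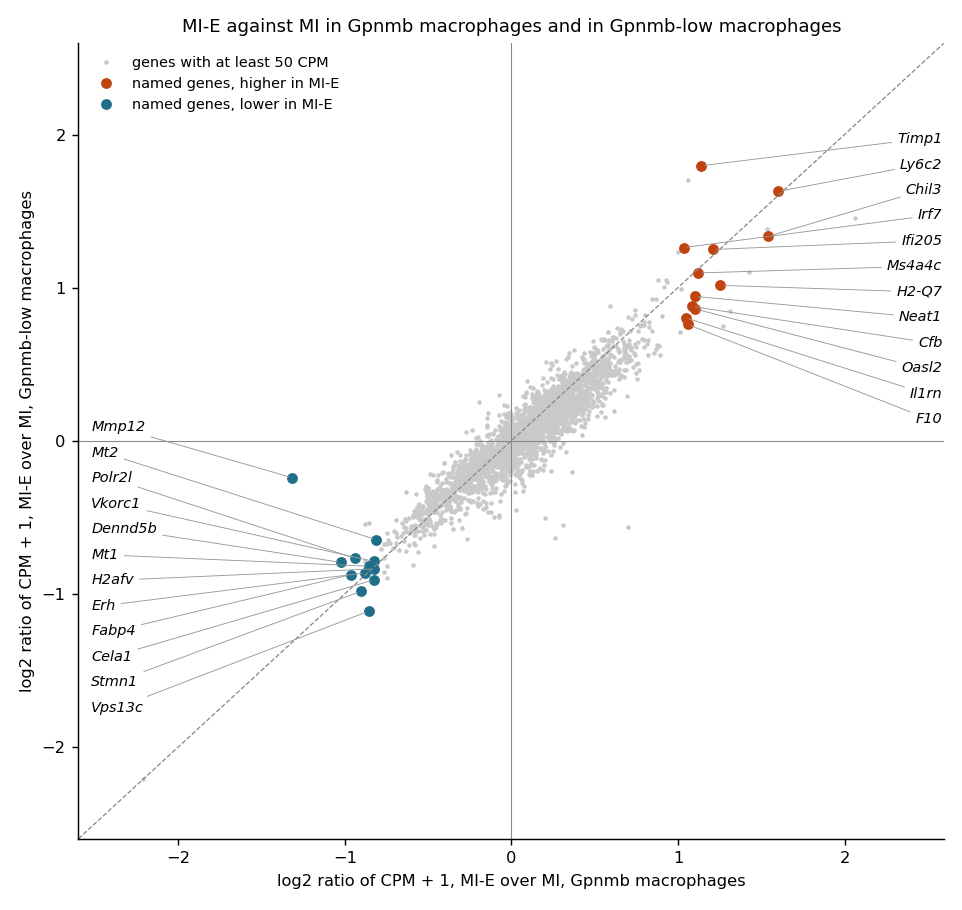
Log2 ratio of CPM + 1 of MI-E over MI in Gpnmb macrophages on the horizontal axis and in Gpnmb-low macrophages on the vertical axis, for 2809 genes with at least 50 CPM. Most of the 24 named genes lie near the diagonal, Mmp12 lies left of it at 0.398-fold in members and 0.844-fold in Gpnmb-low macrophages, and 7 points, collagen, decorin and haemoglobin genes, lie outside the axes.

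**Figure D5:**
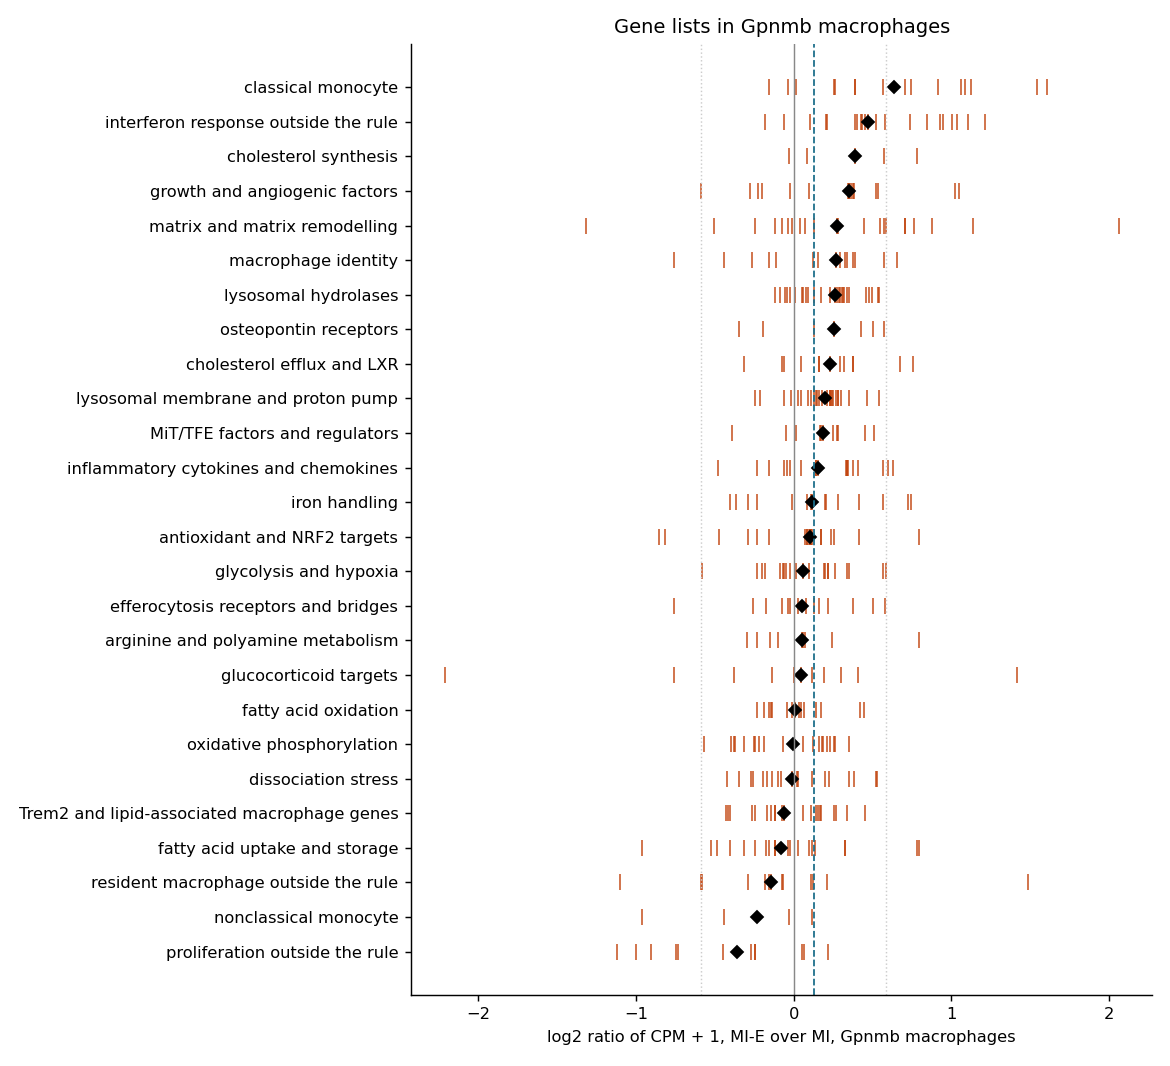
Log2 ratio of CPM + 1 of MI-E over MI in Gpnmb macrophages for each measured gene of 26 lists, with ticks for genes, diamonds for list medians, a dashed line at the median of all measured genes, 0.13, and dotted lines at 1.5-fold. The classical monocyte list has the highest median, 0.64, and the proliferation list the lowest, -0.36.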

How the data were processed

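Gene by barcode UMI counts of 3 droplet libraries (MI-E, MI, Sham; 1 library per group) were used as deposited. The authors made these counts with Cell Ranger 5.0.1 on mm10, per the submitters' processing notes, and the counts are not normalized. Barcodes were selected with the gates given in the results. UMIs were summed over the barcodes of a population, scaled to CPM and compared as log2 ratios of CPM + 1, with python 3.11.15, numpy 2.4.6, scipy 1.17.1 and pandas 2.3.3. The edgeR quasi-likelihood test was not run because each group has 1 library, and edgeR 4.0.16 gave only the TMM factors of an alternative. Genes needed 20 CPM in either population, and 1.5-fold was the threshold. Intervals are exact 95% binomial (Clopper-Pearson) or conditional Poisson ones. Doublets were scored with Scrublet in scanpy 1.11.5 and kept.

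T cells had at least 2 UMIs of Cd3d, Cd3e and Cd3g, B cells at least 2 of Cd79a, and neutrophils at least 3% S100a8 and S100a9. All of them had at most 1 UMI over C1qa, C1qb and C1qc, so barcodes with more of these macrophage transcripts were not among them. Named genes are the 12 highest and 12 lowest ratios of each comparison among genes with 50 CPM and UMIs in 5% of members. For members over Gpnmb-low macrophages the less extreme library decided the rank. Gate, mitochondrial, ribosomal, haemoglobin, immunoglobulin, T cell receptor and predicted genes were not taken, nor other cells' markers for MI-E over MI. The markers and up to 4 members of each list in either direction were also named. Members and lists were chosen with earlier results of these data known. Of the list genes 2 did not match the files. Calculations were tested on simulated data. Promoter windows are from RefSeq. The values of 1 gene are not reported here.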

Additional observations from a re-analysis of the deposited data

Results flagged for a closer look

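Hbb-bs, a beta globin gene of red blood cells, stood apart because its difference between Gpnmb and Gpnmb-low macrophages had opposite signs in the libraries. The log2 ratio was 2.55 in MI-E and -2.12 in MI, and this difference was not tested. Its level was 59.8 CPM in MI-E members and 70.5 CPM in MI members, against 9.36 CPM in Gpnmb-low macrophages of MI-E and 310.2 CPM in those of MI. Single barcodes held 85.7% of the Hbb-bs UMIs of MI-E members, 86.6% of those of MI members and 79.0% of those of the Gpnmb-low macrophages of MI. Without the largest barcode of each population the level was 8.56 CPM in MI-E members and 9.43 CPM in MI members, against 9.14 CPM in Gpnmb-low macrophages of MI-E and 65.0 CPM in those of MI.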

How the results depend on the processing

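The share of members among kept barcodes, MI-E over MI, was 0.679 when barcodes were thinned to 5000 UMIs first and shallower ones left out. It was between 0.523 and 0.537 under the other settings. Without a filter on low genes, 735 genes were higher and 369 lower in MI-E than in MI members, and 174 were higher and 355 lower in members than in Gpnmb-low macrophages of both libraries. With TMM factors 104 were higher and 234 lower in MI-E members. With CPM + 10, 119 were higher in MI-E members and 58 lower in members than in Gpnmb-low macrophages of both libraries. Restricting to cells of 8000 to 20000 UMIs, a setting chosen after seeing the data, gave 321 higher and 114 lower genes in MI-E members. The other planned settings, which were 3 Gpnmb UMIs, doublets removed, 5% mitochondrial UMIs and equal weight per cell, kept these counts within 1.5 times. All 738 values of named genes kept their sign. Of 783 values of list medians 748 kept it, and of the other 35 none had passed 1.5-fold. Where a list median had passed 1.5-fold, 19 values under the alternatives fell below it. No paired analysis was possible because each group has 1 library, and for the same reason no replicate could be left out. The shallow Sham, B cell and neutrophil barcodes limit the shares at 5000 UMIs.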

Other observations

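Gpnmb macrophages also differed among themselves in Arg1, the arginase that turns arginine into ornithine. Arg1 was used by no gate. After thinning to 5000 UMIs, 402 of 1051 MI-E members (38.2%) and 581 of 1421 MI members (40.9%) had 2 or more Arg1 UMIs, while 47.3% of MI-E members and 41.5% of MI members had none. Members with Arg1 had more Ppbp, a platelet and myeloid chemokine, at 128 CPM with Arg1 and 19.2 CPM without in MI-E, and at 56.3 CPM with and 12.3 CPM without in MI. Fn1 was at 583 CPM with Arg1 and 192 CPM without in MI-E, and at 556 CPM with and 200.1 CPM without in MI. Cxcl3, a neutrophil-attracting chemokine, was at 557 CPM with and 217 CPM without in MI-E, and at 579 CPM with and 267 CPM without in MI. Spp1 was 1.43-fold higher with Arg1 in MI-E and 1.41-fold in MI.

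Other genes were lower in members with Arg1. The ratio of members with Arg1 over those without was 0.687 in MI-E and 0.713 in MI for Gpnmb, 0.638 in MI-E and 0.813 in MI for Lpl, and 0.616 in MI-E and 0.732 in MI for Fabp4. It was 0.822 in MI-E and 0.856 in MI for Fabp5, 0.870 in MI-E and 0.816 in MI for Trem2, and 0.926 in MI-E and 0.755 in MI for Apoe. Igf1 was at 47.5 CPM with Arg1 and 101 CPM without in MI-E, and at 73.8 CPM with and 151 CPM without in MI. Of the monocyte genes, Ly6c2 had a ratio of 0.593 in MI-E and 0.758 in MI, and Ccr2 of 0.958 in MI-E and 1.15 in MI. These values describe cells grouped by a transcript measured in them and were not tested.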
